A study of Mus musculus with 83 samples.

Results

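The 9 genes described here encode parts of the junctions that hold the cells of the mouse embryo together: Cdh1, Ctnna1 and Ctnnb1 of the adherens junction, and Tjp1, Cldn4, Cldn6, Cldn7, Ocln and F11r of the tight junction. They were listed by name, with earlier results of these data known, and all 9 were found among the 23845 genes of the embryo table. The most visible pattern was a stage difference in claudin mRNA. The median of the summed Cldn4, Cldn6 and Cldn7 level went from 193 TPM (the share of a gene among all transcripts of an embryo, corrected for transcript length) in 4-cell control embryos to 646 TPM in control morulae, and from 244 to 1132 TPM in embryos of heated fathers. Morulae also had more detected genes, and with that number as a covariate 0 members rose and 1 fell (F11r) in both control and heat embryos. Among all genes tested, 9.72% rose and 29.4% fell in control embryos, and 8.66% rose and 31.6% fell in heat embryos. No member passed the test for an effect of paternal heat at either stage, and 0% of all 7322 genes tested at the 4-cell stage and 7897 in morulae did.

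The study exposed adult male mice, 8 to 12 weeks old, for 7 days either to a daily cycle of 8 h at 35 °C and 16 h at 25 °C or to a constant 21 °C in the same kind of unit, the sham control. Polyadenylated RNA was then profiled in single whole embryos obtained with the sperm of these males. Of the 77 embryos 34 had reached the 4-cell stage (16 from sham and 18 from heated males, called control and heat embryos below) and 43 were morulae (22 control and 21 heat). No genetic change, strain difference or treatment of the embryo is named in the labels, and the labels describe heat exposure for the father only. No label names the father, mother, litter, collection day or sequencing batch of an embryo, so p-values rest on variation from embryo to embryo, and siblings among them would not be recognised.

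Compaction is the step at which the loosely touching cells of the cleaving embryo flatten against each other and become a morula. E-cadherin, the product of Cdh1, spans the membrane and binds E-cadherin on the neighbouring cell. Inside the cell its tail carries beta-catenin, the product of Ctnnb1, which holds alpha-catenin, the product of Ctnna1, and through it the actin cortex. Tight junctions are completed after compaction: claudins build the sealing strands, occludin and the adhesion molecule JAM-A (F11r) sit beside them, and ZO-1 (Tjp1) ties them to actin. The seal later lets the outer cells pump fluid into the blastocyst cavity.

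The groups differed in how many genes were listed above 0 TPM, and this bears on every level below. Medians were 8260 genes in 4-cell control, 8997 in 4-cell heat, 10774 in control morula and 11283 in heat morula embryos, over ranges of 6303 to 10048, 6961 to 10274, 6480 to 12239 and 9026 to 12506. Control morula replicate 15 and heat morula replicates 6, 10 and 11 lay more than 3 median absolute deviations below the median of their group. TPM keeps no depth, so the reads behind a value are unknown, and a listed 0 can be a failed estimate. By level, Krt8, Krt18, Cdx2 and Gata3, genes of the forming trophectoderm, were above 0 in all 43 morulae, with control medians of 90.7, 186, 18.1 and 49.6 TPM against 0.19, 1.49, 0 and 0.59 TPM at the 4-cell stage. The oocyte-carried genes Zp3 and Npm2 had control medians of 34.1 and 90.9 TPM at the 4-cell stage and 8.51 and 3.64 TPM in morulae. Of 8 cumulus cell markers, which would show attached maternal cells, Has2, Ptx3 and Tnfaip6 were listed at 0 in all 77 embryos, and Cyp11a1, Star, Amh and Fshr had a median of 0 and at most 2.42 TPM in every group. Amhr2 was above 0 in all 77 embryos, with medians of 36.6, 61.4, 12.5 and 13.4 TPM in 4-cell control, 4-cell heat, control morula and heat morula embryos, and its part in the results was not tested.

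The start regions of the 3 claudin genes are shown because these members had the largest fold changes between the stages on the log2(TPM + 1) scale with no covariate. Each is the stretch just upstream of the most upstream RefSeq start, on GRCm38.p6, read 5′ to 3′ on the strand of the gene, with matches to the motifs searched in capitals. The regions are chr5:134946935-134947184 on the minus strand for Cldn4, chr17:23679115-23679347 on the plus strand for Cldn6 and chr11:69964529-69964778 on the plus strand for Cldn7.
Cldn4: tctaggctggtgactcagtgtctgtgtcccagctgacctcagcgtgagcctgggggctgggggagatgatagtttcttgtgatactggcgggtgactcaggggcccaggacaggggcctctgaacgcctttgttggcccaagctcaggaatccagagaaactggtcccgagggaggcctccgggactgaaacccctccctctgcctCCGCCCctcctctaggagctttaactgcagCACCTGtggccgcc
Cldn6: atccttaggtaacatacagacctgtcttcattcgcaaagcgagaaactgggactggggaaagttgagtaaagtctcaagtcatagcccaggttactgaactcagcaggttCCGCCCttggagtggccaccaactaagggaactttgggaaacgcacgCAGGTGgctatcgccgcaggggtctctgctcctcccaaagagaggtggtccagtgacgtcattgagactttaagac
Cldn7: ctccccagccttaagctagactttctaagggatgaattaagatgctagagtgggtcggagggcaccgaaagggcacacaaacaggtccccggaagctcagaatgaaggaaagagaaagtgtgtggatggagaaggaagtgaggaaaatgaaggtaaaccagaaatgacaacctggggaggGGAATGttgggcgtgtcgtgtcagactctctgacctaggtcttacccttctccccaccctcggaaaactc
Both strands were searched for 4 motifs that do not overlap each other in these windows: an E-box read by Snail-family repressors (CAGGTG), a GC box read by Sp and Klf factors (GGGCGG), a TEAD site (GGAATG) and an AP-2 site (GCCNNNGGC). The Cldn4 window held an E-box 14 bases and a GC box 44 bases upstream of the start, and the Cldn6 window held an E-box 76 bases and a GC box 123 bases upstream. The Cldn7 window held neither, but held a TEAD match 70 bases upstream. AP-2 matches numbered 0 in all 3 windows. Among 32851 RefSeq start windows cut to the same 250 bases, 17.2% held the E-box, 32.7% the GC box, 12.6% the TEAD motif and 13.7% the AP-2 motif. For the 233 bases of the Cldn6 window the shares were 16.2%, 30.3%, 11.9% and 12.6%. A match describes the letters only.

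On GRCm38.p6, by RefSeq, the claudin genes lie on separate chromosomes: Cldn4 on chromosome 5 (134945123 to 134946934), Cldn6 on 17 (23679348 to 23682446) and Cldn7 on 11 (69964779 to 69967886). F11r lies on chromosome 1 (171437561 to 171464593), Tjp1 on 7 (65296165 to 65527850), Cdh1 on 8 (106603350 to 106670247), Ctnnb1 on 9 (120933400 to 120960507) and Ocln on 13 (100496504 to 100552718). The table gives 1 value per gene, so no isoform is told apart.

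**Figure D1:**
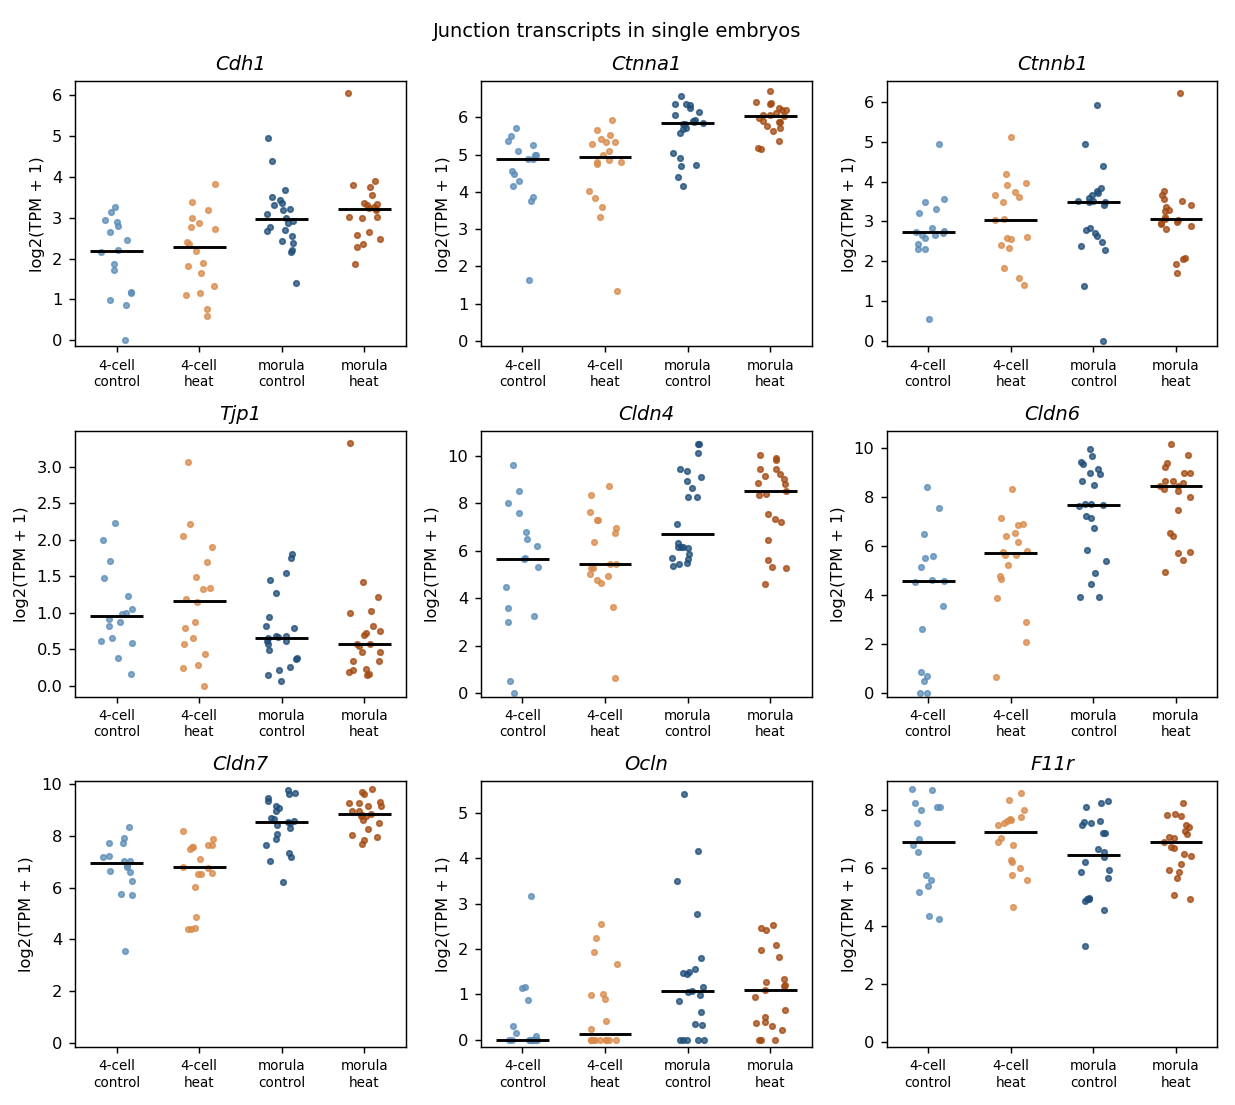
Levels of the 9 members in each of the 77 embryos, on a log2(TPM + 1) axis, with 1 point per embryo and a line at the median of each of the 4 groups. Cldn7, Cldn6 and Cldn4 sit highest in morulae, with medians between 108 and 461 TPM, whereas Tjp1 and Ocln have medians of at most 1.24 TPM in every group.

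The step between these stages was tested in control and in heat embryos separately, which share no sample. In control embryos 4 members rose by the rule of an adjusted p under 0.05 and at least 2-fold (Ctnna1, Cldn4, Cldn6 and Cldn7), 0 fell, and Tjp1 was too low to be tested. Of all 8148 genes tested, 20.6% rose and 11.4% fell by that rule. In heat embryos 5 of 9 members rose (the same 4 and Cdh1) and 0 fell, beside 18.6% and 14.8% of 8430 genes. At an adjusted p under 0.05 and any fold, 6 members were higher in control and 5 in heat morulae, and 0 lower. Of the 6, Ocln entered the test through its level in morulae, and with no filter its adjusted p was 0.0811. The share over all genes was 27.2% higher and 18.9% lower in control, and 26.1% and 24.7% in heat embryos. The median member fold change was 1.02 on the log2(TPM + 1) scale in control embryos, against 0.18 over all genes tested, and 1.03 against 0.02 in heat embryos. These member medians include Ocln, and in heat embryos also Tjp1, which entered the test through 1 stage. The members were also chosen with earlier results of these data known, so this contrast supports nothing beyond itself. Of the members, 7 reached the filter of 1 TPM in 50% of the embryos at both stages, Ocln reached it in morulae and not at the 4-cell stage, and Tjp1 reached it in 4-cell heat embryos.

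**Figure D2:**
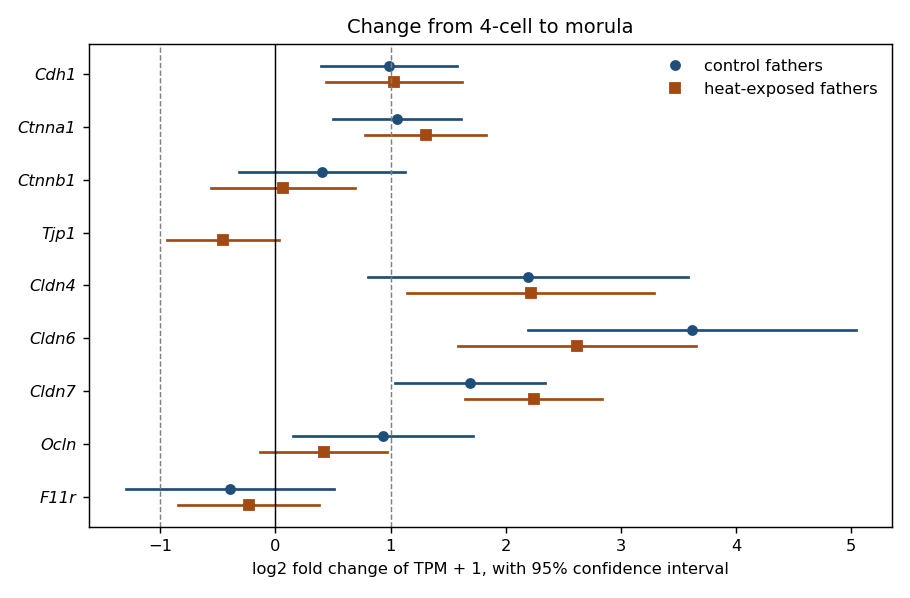
Log2 fold change from 4-cell to morula for each member, with its 95% interval, in control and in heat embryos. Cldn6 (3.62 and 2.61), Cldn4 (2.19 and 2.22), Cldn7 (1.69 and 2.24) and Ctnna1 (1.06 and 1.30) lie to the right of the 2-fold line in both, and F11r (-0.40 and -0.23) lies near 0.

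Among the adherens junction members, Ctnna1, whose protein links the cadherin complex to actin, was the most abundant. Its level was 2.11, 28.6 and 51.2 TPM (lowest, median and highest) in 4-cell control embryos and 16.7, 56.1 and 93.5 TPM in control morulae. In heat embryos it was 1.54, 29.5 and 59.8 TPM at the 4-cell stage and 34.8, 65.1 and 103 TPM in morulae. The stages overlapped, but 14 of 22 control and 12 of 21 heat morulae lay above the highest 4-cell embryo of their paternal group. Ctnna1 rose by a log2 fold change of 1.06 (SE 0.27, adjusted p = 0.00159) in control and 1.30 (SE 0.26, adjusted p = 5.86e-05) in heat embryos. Scaling each embryo to the same median put the control value at 0.92, under 2-fold, which left 3 members called.

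Cdh1, the adhesion receptor itself, was listed at a much lower level. It stood at 0, 3.54 and 8.51 TPM in 4-cell control embryos, with 15 of 16 above 0, and at 1.62, 6.77 and 30.0 TPM in control morulae. The heat values were 0.50, 3.86 and 13.2 TPM at the 4-cell stage and 2.63, 8.18 and 64.6 TPM in morulae. Ranges overlapped widely, with 7 of 22 control and 2 of 21 heat morulae above every 4-cell embryo of their group. The log2 fold change was 0.99 (SE 0.29, adjusted p = 0.00522) in control embryos, just under the 2-fold limit, and 1.03 (SE 0.29, adjusted p = 0.00333) in heat embryos, just over it. Without heat morula replicates 6, 10 and 11 the heat value was 0.98 and no longer reached 2-fold, which left 4 members called in heat embryos.

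Ctnnb1, which binds cadherin and also carries Wnt signals to the nucleus, did not pass. In control embryos it was 0.45, 5.62 and 29.7 TPM at the 4-cell stage and 0, 10.3 and 60.1 TPM in morulae (21 of 22 above 0). In heat embryos it was 1.64, 7.24 and 34.1 TPM, then 2.22, 7.38 and 73.5 TPM. The stages covered nearly the same range, with log2 differences of 0.40 (95% interval -0.32 to 1.12) and 0.07 (-0.56 to 0.69). The highest Cdh1, Ctnnb1 and Tjp1 values of the heat morulae all came from replicate 6, at 64.6, 73.5 and 9.01 TPM.

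Cldn7 had the highest median of the 3 claudins in each of the 4 groups. Its lowest, median and highest levels were 10.7, 122 and 318 TPM in 4-cell control embryos and 72.4, 373 and 867 TPM in control morulae. The heat values were 20.3, 109 and 292 TPM, then 204, 461 and 885 TPM. Of the morulae, 14 of 22 control and 17 of 21 heat embryos exceeded every 4-cell embryo of their paternal group. Cldn7 rose by 1.69 (SE 0.32, adjusted p = 3.87e-05) and 2.24 (SE 0.29, adjusted p = 2.87e-08) on the log2(TPM + 1) scale.

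Cldn6, a claudin of early embryonic epithelia, had the largest fold change of the members in both paternal groups. It was 0, 22.7 and 340 TPM in 4-cell control embryos, with 14 of 16 above 0, and 14.3, 206 and 1014 TPM in control morulae. The heat levels were 0.59, 51.5 and 322 TPM, then 29.4, 349 and 1172 TPM. A wide spread within each stage left 9 of 22 control and 11 of 21 heat morulae above all 4-cell embryos of their group. The log2 fold change was 3.62 (SE 0.71, adjusted p = 5.3e-05) in control and 2.61 (SE 0.51, adjusted p = 4.2e-05) in heat embryos.

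Cldn4, which together with Cldn6 is found in the tight junctions of the mouse blastocyst, varied widely between embryos of 1 stage. Control levels were 0, 49.6 and 778 TPM at the 4-cell stage, with 15 of 16 above 0, and 39.4, 108 and 1455 TPM in morulae. Heat levels were 0.54, 41.9 and 417 TPM at the 4-cell stage and 23.2, 360 and 1035 TPM in morulae. Here 3 of 22 control and 10 of 21 heat morulae were above every 4-cell embryo of their group. It rose by 2.19 (SE 0.69, adjusted p = 0.00826) and 2.22 (SE 0.53, adjusted p = 0.000592), with standard errors about as wide as those of Cldn6.

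F11r, the gene of JAM-A, was abundant before compaction. In control embryos it was 18.0, 119 and 422 TPM at the 4-cell stage and 9.01, 87.1 and 318 TPM in morulae, and in heat embryos 24.6, 154 and 386 TPM, then 29.6, 119 and 299 TPM. No morula exceeded the highest 4-cell embryo of its paternal group (0 of 22 and 0 of 21). The log2 differences were -0.40 (95% interval -1.30 to 0.51) and -0.23 (-0.85 to 0.38), and neither passed the test.

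Ocln and Tjp1 had the lowest medians of the members. Ocln, the gene of the strand protein occludin, was above 0 in 7 of 16 and 9 of 18 embryos at the 4-cell stage and in 17 of 22 and 18 of 21 morulae, with group medians of 0, 0.09, 1.10 and 1.15 TPM for 4-cell control, 4-cell heat, control morula and heat morula embryos. Its highest value, 41.7 TPM, was in a control morula. Its log2 difference was 0.93 (SE 0.39, adjusted p = 0.0438) in control embryos, under 2-fold, and 0.42 (SE 0.27, adjusted p = 0.199) in heat embryos. Tjp1, the gene of the scaffold ZO-1, had medians of 0.93, 1.24, 0.58 and 0.48 TPM in the same order, and its difference in heat embryos was -0.46 (95% interval -0.94 to 0.03).

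Neighbours in the order of levels were often close. By median, F11r and Cldn7 led at the 4-cell stage (119 and 122 TPM after sham, 154 and 109 TPM after heat), and in morulae Cldn7 led, with Cldn6 and Cldn4 next. The interquartile ranges of neighbours in the order overlapped among Cldn7, F11r, Cldn4, Cldn6 and Ctnna1 in all 4 groups. A gap without such overlap separated Ctnna1 from the next gene down, Ctnnb1 or Cdh1, in 4-cell heat, control morula and heat morula embryos. All 9 members were above 0 in 7 of 16 and 8 of 18 embryos at the 4-cell stage, and in 17 of 22 and 18 of 21 morulae.

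The levels of Cldn4, Cldn6, Cldn7, F11r and Ctnna1 moved with the number of detected genes. This relation was tested for the 9 members only, so it is not shown to be particular to them. Over 77 embryos, with values centred on the group means, Pearson's r with the number of detected genes was 0.75 for Cldn6 (Spearman's rho 0.77), 0.72 for F11r (0.77), 0.67 for Cldn4 (0.75) and 0.63 for Cldn7 (0.70), each with an adjusted permutation p of 1.8e-05 over 9 relations, from the smallest p that the permutations could give. Ctnna1 (r 0.51, rho 0.54) passed with the same p, Ocln (0.46, 0.46) with adjusted p = 0.000285, and Cdh1 (0.38, 0.45) with adjusted p = 0.000759. Ctnnb1 (0.23, 0.13, adjusted p = 0.0674) and Tjp1 (0.08, 0.09, adjusted p = 0.480) did not. Leaving out the 2 embryos farthest from the median number of detected genes gave r of 0.82 for Cldn6, 0.78 for F11r, 0.72 for Cldn4, 0.71 for Cldn7 and 0.08 for Ctnnb1. Within single groups r lay between 0.69 and 0.88 for Cldn6, 0.64 and 0.83 for F11r, 0.51 and 0.79 for Cldn4, 0.47 and 0.74 for Cldn7 and 0.32 and 0.64 for Ctnna1. For the other members the groups differed: in heat morulae r was 0.13 for Cdh1, 0.18 for Ocln, -0.17 for Ctnnb1 and -0.40 for Tjp1, and in control morulae 0.59, 0.61, 0.58 and 0.24.

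**Figure D3:**
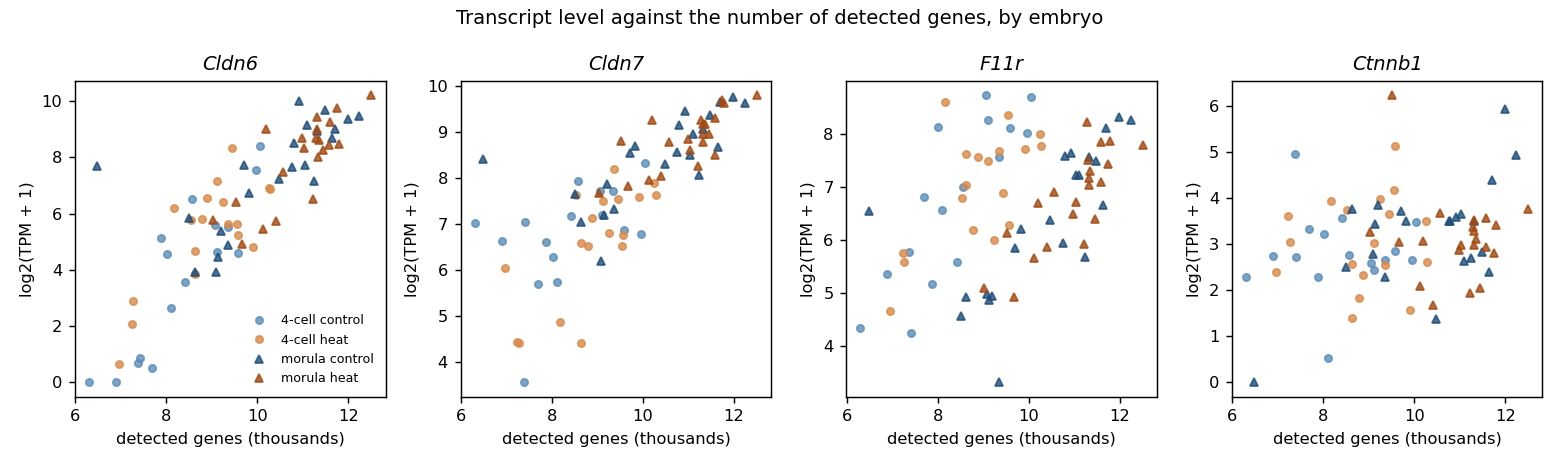
Levels of Cldn6, Cldn7, F11r and Ctnnb1, as log2(TPM + 1), against the number of genes detected in the embryo, with 1 point per embryo coloured by group (circles 4-cell, triangles morula). Cldn6, Cldn7 and F11r climb with the number of detected genes. Between 8500 and 10274 detected genes the F11r medians are 29.7 TPM in control morulae and 274 TPM in 4-cell control embryos. In heat embryos they are 49.95 TPM in morulae and 183 TPM at the 4-cell stage, with overlapping ranges. There 38.6% of all genes tested fell in control and 18.6% in heat embryos.

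Since morulae had more detected genes, the stage difference was also computed with this number in the model. With it as a covariate 0 members rose and 1 fell in each paternal group, beside 9.72% of all genes tested that rose and 29.4% that fell in control, and 8.66% and 31.6% in heat embryos. The median over all genes was -0.45 and -0.55. That gene was F11r, at -1.96 (adjusted p = 8.36e-05) in control and -1.83 (adjusted p = 2.93e-05) in heat embryos. Cldn7 kept a positive difference of 0.79 (adjusted p = 0.0440) and 0.69 (adjusted p = 0.0805), under the 2-fold limit, and Cldn4 was at -0.20 in both. Cldn6 was at 1.07 (adjusted p = 0.137) and -0.42 (adjusted p = 0.518), and Ctnna1 at 0.47 and 0.25.

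F11r was also lower in morulae within a window of detected genes, chosen after seeing the data. It runs from 8500 to the richest 4-cell embryo, 10274. It holds 7 4-cell control, 14 4-cell heat, 8 control morula and 5 heat morula embryos. Its 4-cell control embryos all lay above their group median of 8260 detected genes. Its morulae all lay below their group medians, 10774 in control and 11283 in heat embryos. The window thus sets gene-rich 4-cell control embryos against gene-poor morulae. F11r levels there were 127, 274 and 422 TPM (lowest, median and highest) in 4-cell control embryos and 9.01, 29.7 and 72.6 TPM in control morulae, without overlap. In heat embryos they were 62.8, 183 and 327 TPM, then 29.6, 49.95 and 103 TPM, with some overlap. F11r fell by 3.09 (adjusted p = 3.11e-06) and 1.53 (adjusted p = 0.00386) on the log2 scale. The whole table was shifted downward in this window: 9.22% of all genes tested rose and 38.6% fell in control, and 7.06% and 18.6% in heat embryos, with medians over all genes of -0.75 and -0.43. In this window Cldn4 fell by 1.71 in control embryos (adjusted p = 0.00418), with medians of 194 and 50.5 TPM, whereas in heat embryos its difference was 0.18 (adjusted p = 0.896). Control medians of Cldn7 were 209 and 180 TPM. In heat embryos of the window Cldn7 rose by 1.26 (adjusted p = 0.0296), but 3 of the 5 heat morulae there are replicates 6, 10 and 11, which stood apart by their few detected genes. The trophectoderm keratin Krt8 still had medians of 0.32 and 48.7 TPM in the same control embryos. The number of detected genes and the stage differ together in these embryos, and their parts in the rise of the claudins and Ctnna1 cannot be told apart here. The same holds for the lower F11r level in morulae, which was called only with the covariate or in the window. Likewise, a whole embryo cannot show whether fewer cells carry an mRNA or each cell carries less.

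Paternal heat was then compared with sham at each stage, the question that the design text names. At the 4-cell stage 0 of 8 members tested passed an adjusted p under 0.05 by limma (Ocln was too low), as did 0% of the 7322 genes in either direction. At an unadjusted p under 0.05 there were 842 such genes, 9.98% higher and 1.52% lower, with 0 members among them. Cldn6 came nearest: its median was 22.7 TPM after sham and 51.5 TPM after heat, and 14 of 18 heat embryos lay above the control median. The ranges, 0 to 340 and 0.59 to 322 TPM, overlapped almost fully. The log2 difference was 1.51 (SE 0.75, unadjusted p = 0.0501, adjusted p = 0.433), with a 95% interval of 0.00 to 3.02. The other 7 differences lay between -0.19 (Cldn7) and 0.50 (Cldn4), against a median of 0.26 over all genes. Detected genes also stood at a higher median in heat embryos, 8997 against 8260, and with them as a covariate Cldn4 was at -0.20 and F11r at -0.26, and Cldn6 at 0.54 (adjusted p = 0.837).

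In morulae, too, 0 of 8 members tested and 0% of 7897 genes passed in either direction (478 at an unadjusted p under 0.05, 4.13% higher and 1.92% lower, with 0 members). Cldn4 medians differed, at 108 TPM in control and 360 TPM in heat morulae, and 16 of 21 heat morulae lay above the control median. Its ranges of 39.4 to 1455 and 23.2 to 1035 TPM nonetheless overlapped, and the log2 difference of 0.53 had a 95% interval of -0.49 to 1.55 (adjusted p = 0.828). Ctnna1 had the smallest unadjusted p of the members, 0.0836, with a difference of 0.32 (-0.04 to 0.68, adjusted p = 0.795). Cldn6 was at 0.51 (-0.50 to 1.52), Cldn7 at 0.36 (-0.11 to 0.84), F11r at 0.39 (-0.30 to 1.08), Cdh1 at 0.19 (-0.32 to 0.69), Ctnnb1 at -0.09 (-0.74 to 0.56) and Ocln at -0.28 (-0.98 to 0.43). A p that misses the threshold does not show equal levels.

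**Figure D4:**
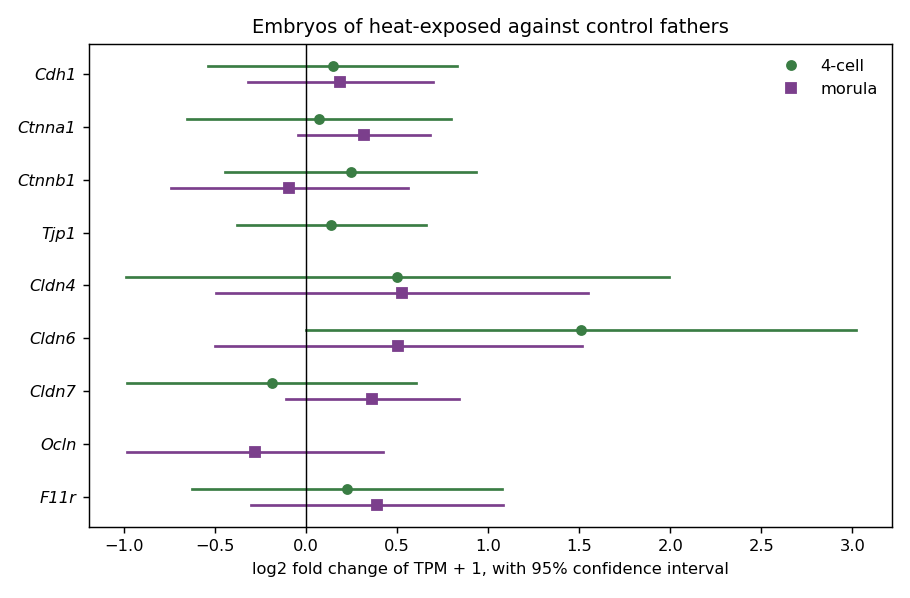
Log2 difference of heat minus control embryos for each tested member, with its 95% interval, at the 4-cell stage and in morulae. Every interval holds 0, that of Cldn6 at the 4-cell stage (0.00 to 3.02) by the least, and the Cldn4 and Cldn6 intervals are the widest at both stages.

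Whether the step from 4-cell to morula differed between the paternal groups was tested over all 77 embryos. The interaction was called for 0 of 9 members and 0% of 8689 genes in either direction (458 at an unadjusted p under 0.05, 1.31% higher and 3.96% lower, with 0 members). Estimates for the claudins were -1.001 (95% interval -2.78 to 0.78) for Cldn6, 0.55 (-0.33 to 1.44) for Cldn7 and 0.03 (-1.75 to 1.81) for Cldn4. That Cdh1 reached 2-fold in heat and not in control embryos is not shown to be a difference between them, as its interaction was 0.04 (-0.77 to 0.85).

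Members also varied with each other from embryo to embryo. Among the 36 pairs, with values centred on group means over 77 embryos, the closest were Cldn4 with F11r (Pearson's r 0.80, Spearman's rho 0.86), Cldn6 with F11r (0.78, 0.75), Cldn4 with Cldn6 (0.75, 0.79), Cldn6 with Cldn7 (0.71, 0.75) and Cldn4 with Cldn7 (0.69, 0.74), each with an adjusted permutation p of 3e-05. Without the 2 farthest embryos on the first gene of each pair these were 0.83, 0.75, 0.80, 0.71 and 0.69. The pair of catenins, Ctnna1 with Ctnnb1, had r of 0.04 (rho 0.04, adjusted p = 0.705). The number of detected genes is shared by the embryos behind these pairs.

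Genes of the whole table whose levels were most like a member, by the same centred Pearson's r among 8689 genes, are given as a description. They were Cyth2 (0.93) and Eif2b1 (0.91) for F11r, Tspan31 (0.88) and Psmd13 (0.87) for Cldn6, Pramel6 (0.86) and Cdipt (0.85) for Cldn4, and Tuba1b (0.80) and Psmc3 (0.77) for Cldn7. For the adherens members they were Tead4 (0.69) and Ubxn6 (0.68) for Ctnna1, Clptm1 (0.72) and Eef2 (0.72) for Cdh1, and Pank3 (0.74) and Eif4g2 (0.74) for Ctnnb1. Mboat2 (0.76) and Myd88 (0.73) came nearest to Ocln, and Naa15 (0.65) and Kpnb1 (0.64) to Tjp1. The centred r of these genes with the number of detected genes ran from 0.22 (Kpnb1) to 0.77 (Psmd13), with 0.67 for Tead4. The part of that number in the likeness was not tested. In heat morulae the highest values of Pank3, Eif4g2, Naa15 and Kpnb1 were 19.59, 85.03, 57.15 and 68.73 TPM. Their upper quartiles there were 2.93, 6.93, 4.8 and 9.18 TPM. How far single embryos carry the r of these genes with Ctnnb1 and Tjp1 was not tested.

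Other junction genes were examined by list. Of 16 further adherens junction genes in the table, 7 were tested in control embryos, 1 rose and 0 fell, beside 20.6% and 11.4% of all genes, and the median fold change was 0.30 against 0.18. The gene that rose was Pvrl2, the adhesion receptor nectin-2 under its older symbol, at 2.37 (SE 0.53, adjusted p = 0.000315), whereas the catenin relative Jup was at 0.82 and the nectin partner Mllt4 (afadin) at 0.40. Of 27 further tight junction genes 11 were tested and 7 rose, 0 fell, with a median of 1.13. They include Marveld3, a relative of occludin, at 1.25 (SE 0.28), the Y-box factor Ybx3, which binds ZO-1, at 1.30 (SE 0.22) and Cldn9 at 3.09 (SE 0.39). Cldn3 was listed at 0 in all 16 4-cell control embryos and was above 0 in 19 of 22 control morulae. In heat embryos 1 of 8 adherens and 6 of 11 tight junction genes rose and 0 fell. Genes that reach the filter through their high stage, such as Cldn3, Cldn9 and Marveld3, had to differ, so these counts support nothing beyond themselves.

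In the remaining lists, the desmosome genes Perp and Pkp2 (a plakophilin) reached 1 TPM in 3 and 0 of 16 4-cell control embryos and in 22 and 15 of 22 control morulae, with medians of 0 and 0 TPM, then 15.2 and 1.93 TPM. Both entered the test through morulae, so their calls are not counted. Among actomyosin genes of the cortex, to which the catenins couple, 7 of 18 rose and 0 fell, beside 20.6% and 11.4% of all genes, led in size by the actins Actg1 at 3.88 (SE 0.54) and Actb at 2.35 (SE 0.33) and the actin capping subunit Capzb at 2.56 (SE 0.35). The heat embryos gave 6 of 17, beside 18.6% of all genes that rose. Ezr, Actn1 and Myh9 reached 1 TPM in 1, 2 and 5 of 16 4-cell control embryos. In control morulae they did so in 16, 13 and 20 of 22. Ezr and Myh9 did so in 1 and 4 of 18 4-cell heat embryos and in 16 and 16 of 21 heat morulae. They entered the tests through morulae, so the counts of this list support nothing beyond themselves. Of 7 tested transcription factors of epithelial genes, 3 fell and 0 rose in control embryos, and 4 fell in heat embryos, beside 11.4% and 14.8% of all genes that fell. Ovol2 was at -3.36 (SE 0.29), Grhl2, an activator of epithelial junction genes, at -1.21 (SE 0.32), and Snai1, a repressor that reads the E-box letters printed above and is known to lower Cdh1, at -1.77 (SE 0.43) in control and -2.18 (SE 0.41) in heat embryos. No link between these factors and the level of a member was tested.

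**Figure D5:**
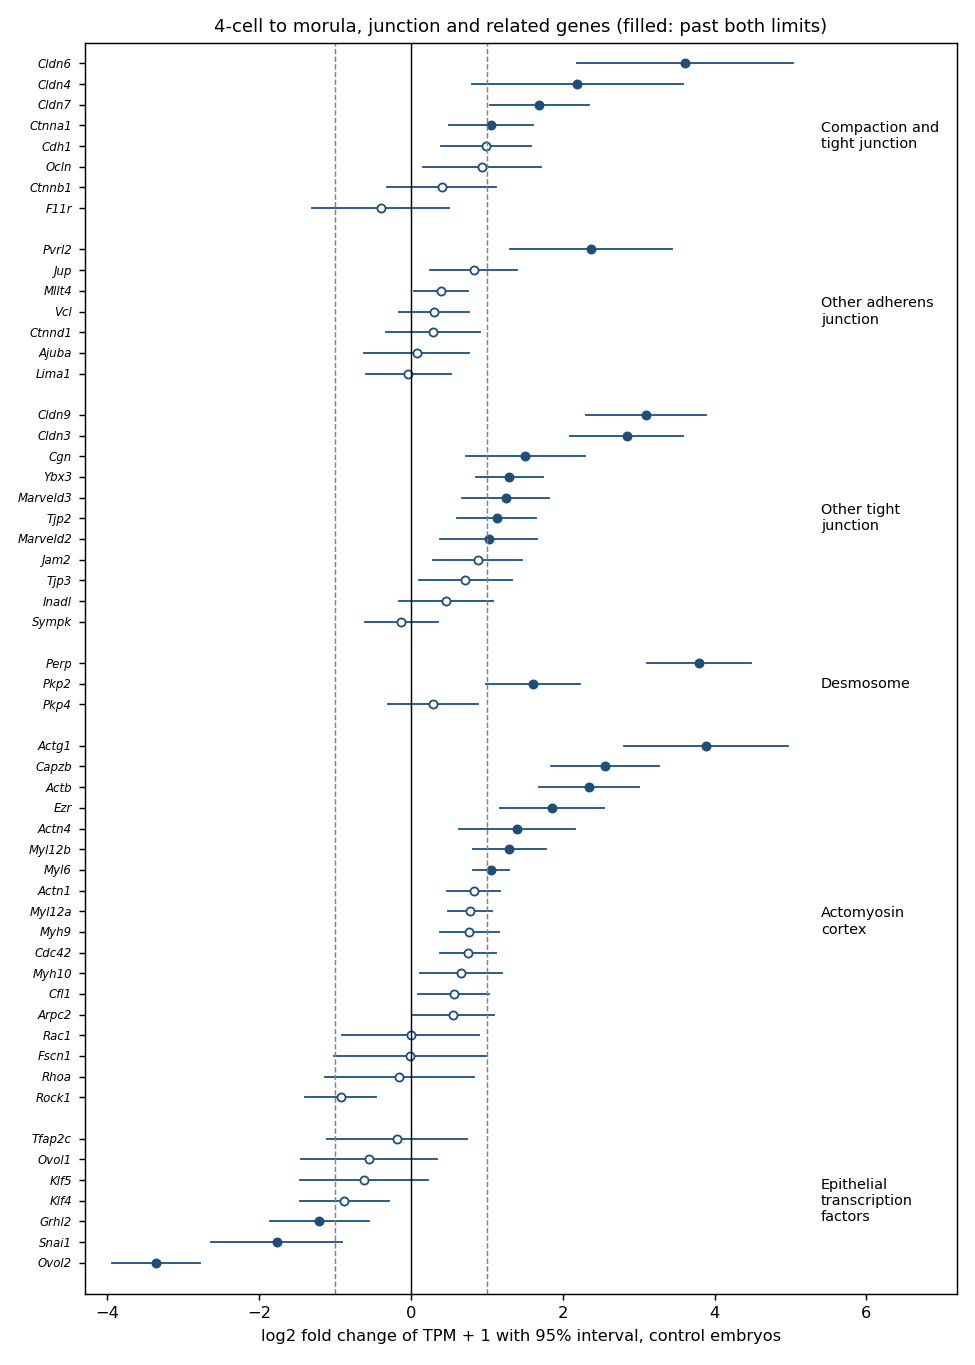
Control embryos, log2 fold change of morulae over 4-cell embryos with 95% intervals, for every tested gene of the adherens junction, tight junction, desmosome and actomyosin lists and the epithelial transcription factors, 1 gene per line, filled where it passed both limits. The 3 claudins among the members lie on the right, as do Cldn9 (3.09), Pvrl2 (2.37) and the actomyosin genes Actg1, Capzb and Actb. Cldn9 entered the test through its level in morulae. Ovol2 (-3.36) and Snai1 (-1.77) lie on the left.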

How the data were processed

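Polyadenylated RNA of 77 single embryos was analysed, with groups taken from the labels; the 6 sperm libraries were not used here. Embryo levels are the TPM that the authors deposited for 23845 genes. The submitters' processing notes name mm10, Bowtie2, RSEM and Trimmomatic, per the labels, with versions and roles not given in the sources used here. TPM keeps no depth, so precision rests on the number of embryos. A gene was tested if 50% or more of the embryos of any group in the fit had a TPM of 1 or more. Values were tested as log2(TPM + 1), which understates changes of low genes, with limma 3.58.1 (R 4.3.3), a mean-variance trend and 2-sided Benjamini-Hochberg adjusted p-values over all genes kept. Calls needed an adjusted p under 0.05 and, between stages, also 2-fold. Correlations were tested with 100000 permutations of values within groups. The scripts were tested on simulated data. The highest correlation between any pair of embryos was 0.966, and 0 columns were identical.

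All 9 members are named, with up to 4 genes of each other list by smallest p in the control stage comparison and the 2 genes most like each member. The members and lists were chosen with earlier results of these data known. Of the 23845 symbols, 22552 matched RefSeq GRCm38.p6 as current and 1189 as older symbols. Start regions were found for 7 of 9 members. Alternatives covered pseudocount, filters, scaling, array weights, detected genes, pooled spread, embryos with few detected genes and replicate numbers. The gap junction list is not reported here.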

Additional observations from a re-analysis of the deposited data

How the results depend on the processing

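The depth is unknown, and groups of 16 to 22 embryos limit the precision. Of the counts of calls, 182 were equal or stayed within 1.5 times and 22 moved. The 182 include counts that were 0 and stayed 0, as most did for paternal heat and the interaction, so they overstate stability. Of the member fold changes under alternatives, 341 kept direction and side of the threshold, 15 lost the call, 6 gained it and 37 changed sign. The cause was not tested except where named. No filter, the stricter filter and 1 fit of all 77 embryos gave 42, 34 and 33 of the 341. These settings cannot alter a fold change, only its p. Without the 2-fold limit (chosen after seeing the data) 1536 genes fell in control and 2083 in heat embryos. A pseudocount of 0.1 brought Cdh1 (1.38) and Ocln (2.10) past the limits in control embryos, and median scaling put Ctnna1 at 0.92 there. Array weights put Cdh1 of heat embryos at 0.94.

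With detected genes as a covariate, the stage counts were 0 members higher and 1 lower in each paternal group, 792 genes higher and 2395 lower in control and 730 and 2665 in heat embryos. Signs changed in control embryos for Ctnnb1 (-0.26), Cldn4 (-0.20) and Ocln (-0.15), and in heat embryos for Cldn4 (-0.20), Cldn6 (-0.42) and Ocln (-0.016). The window of 8500 to 10274 detected genes holds fewer embryos. In it 0 members were higher and 2 lower in control embryos, beside 745 and 3122 of all genes tested. In heat embryos 1 member was higher and 1 lower there, beside 587 and 1551 of all genes tested. Cldn4 (-1.71) and Cldn6 (-0.75) changed sign in control embryos. Without embryos of few detected genes, Ctnnb1 of heat embryos was at -0.11.

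For paternal heat at the 4-cell stage, median scaling, which shifted the median over all genes from 0.26 to -0.08, gave 1 gene lower and changed signs for Cdh1 (-0.20), Ctnna1 (-0.28), Ctnnb1 (-0.10), Tjp1 (-0.21) and F11r (-0.12). Signs also changed with the covariate for Cdh1 (-0.030), Ctnna1 (-0.18), Cldn4 (-0.20) and F11r (-0.26), and in the window for Cdh1 (-0.28), Cldn4 (-1.28), Cldn6 (-0.14) and F11r (-0.81). One fit of all 77 embryos called 18 genes higher and 8 lower at the 4-cell stage and 1 and 1 in morulae, with 0 members. In morulae, signs changed for Ctnnb1 with the smaller pseudocount (0.031) and in the window (0.31), and with the covariate for Cldn4 (-0.20), Cldn6 (-0.18) and F11r (-0.070).

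For the interaction, signs changed for Cdh1 (-0.084) and Cldn4 (-0.21) with the smaller pseudocount, Tjp1 (0.068) under median scaling, Cldn4 (-0.14) with the covariate, Cdh1 (-0.017) without embryos of few detected genes, and Ctnnb1 (0.075), Tjp1 (0.19) and Cldn6 (1.09) in the window.

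Replicate numbers did not pair the embryos, since same-numbered embryos correlated at means of 0.01 and 0.02 between stages and -0.04 and -0.03 between paternal groups. With the replicate block, 4 and 5 members were higher between stages, 1561 genes were higher and 1055 lower in control and 1465 and 1300 in heat embryos, and 0 genes were called for paternal heat or the interaction. The block changed the interaction's sign for Tjp1 (0.079) and F11r (-0.0023). By the number of its own best match, 2 of 16 control and 0 of 18 heat embryos were closest to their own number between stages.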

Other observations

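The cumulus list had 1 of its 8 genes at a level that could be tested. Amhr2, the receptor for anti-Mullerian hormone, was above 0 in all 77 embryos and lowest at 10.2 TPM in 4-cell control, 7.94 TPM in 4-cell heat, 1.45 TPM in control morula and 3.28 TPM in heat morula embryos. It fell by 1.64 (SE 0.34, adjusted p = 0.000125) in control and 1.67 (SE 0.29, adjusted p = 6.81e-06) in heat embryos from the 4-cell stage to the morula, by limma. Control morula replicate 15, with 6480 detected genes, had 203 TPM of Cldn6 and 340 TPM of Cldn7, near the medians of its group, while Ctnnb1 and Ocln were listed at 0 in it.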
